A study of Mus musculus with 6 samples.

Results

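The genes described here are those of transforming growth factor beta (TGF-beta) signalling that carry the signal from the ligand to the nucleus: Tgfb1, Tgfbr1, Tgfbr2, Tgfbr3, Smad2, Smad3, Smad4, Smad7, Ski and Skil. Every probe set (a group of short array probes read together) with 1 of these symbols in the platform's annotation was taken, and each is shown apart. That gave 24 probe sets for 10 genes, out of 45037 probe sets other than array controls and 18193 named genes. The samples are regulatory T cells (Treg), the CD4 T cell type defined by the transcription factor Foxp3, from mesenteric lymph nodes. Donor mice were 4 to 6 weeks old, of BALB/c background and carried a GFP reporter of Foxp3, by which the cells were sorted. Induced Treg (iTreg), on 3 arrays, came from TBmc mice after 1 week of oral ovalbumin at 1%, gated as negative for Nrp. In TBmc mice, which lack the recombinase, all T cells are known to share an ovalbumin receptor and all B cells another receptor. Total Treg of wild-type (WT) mice make up the other 3 arrays, and the labels name no feeding for them. Genotype, receptor, feeding and gate therefore cannot be told apart in this comparison.

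TGF-beta is secreted in a latent form and, once released, binds the receptor kinase Tgfbr2, which recruits and activates Tgfbr1, the kinase that phosphorylates Smad2 and Smad3. These join Smad4, enter the nucleus and act on target genes, while Smad7 blocks the receptor and the Ski and Skil proteins repress Smad targets. In naive CD4 T cells this pathway is known to induce Foxp3 and so to make Treg outside the thymus, which is the setting this series compares with the total Treg pool.

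Label and array checks come before the results. TBmc is missing from the strain label of iTreg replicate 1, and the cell type label of WT Treg replicate 1 carries the Nrp-negative gate of the other group. The brightest Nrp1 probe set had signals of 252, 133 and 238 in iTreg replicates 1, 2 and 3, against 708, 862 and 1189 in WT Treg, so WT Treg replicate 1 lay with its own group. T cell markers were above the highest unspiked control signal, 28.5, on every array for 8 of 9 genes. Foxp3 was the exception, with 31.7, 54.6 and 15.6 in iTreg, against 26.2, 45.7 and 9.16 in WT Treg. Il2ra had 1169, 2191 and 2256 in iTreg, against 3537, 4656 and 5860 in WT Treg (limma adjusted p = 0.685). Cd5 had 823, 661 and 520 in iTreg, against 1445, 1323 and 1392 in WT Treg (limma adjusted p = 0.798). Both lay lower in iTreg without overlap, and Cd28 higher without overlap on its brightest probe set. They were chosen after their values were seen, and the other T cell markers overlapped. Summed signals of the 6 measured stroma or endothelium markers ran from 379 to 830 in iTreg and from 382 to 424 in WT Treg, and Col1a2, Col3a1, Cdh5 and Pdpn stayed at or below the controls. Pecam1 made up most of each sum, with 598, 345 and 735 in iTreg, against 371, 385 and 341 in WT Treg, with overlap. The 5 B cell markers summed to 58.4 to 113 in iTreg and 58.4 to 122 in WT Treg. Both CD8 T cell markers were above the controls on every array, with sums of 101 to 225 in iTreg and 73.2 to 107 in WT Treg. Of the 7 macrophage or dendritic cell markers, 0 were above them on every array and 3 on some; their sums ran from 72.8 to 124 in iTreg and from 47.9 to 76.9 in WT Treg. Among these, Lyz2, the lysozyme gene, had 44.6, 44.2 and 23.1 in iTreg, against 21.9, 9.01 and 8.79 in WT Treg, without overlap and chosen after its values were seen. The other markers of this list overlapped between the groups. Their log2 differences, iTreg minus WT Treg, were 0.20 for Csf1r and Fcer1g, 0.003 for Adgre1, -0.01 for Siglech, -0.03 for Cd14 and -0.19 for Itgax. Itgax, Cd14, Adgre1 and Siglech stayed at or below the controls on every array. The 2 measured red cell markers summed to 16.8 to 86.6 in iTreg and 44.0 to 55.5 in WT Treg. The part of such cells in the results was not tested. All 4 platelet markers, of cells known to be rich in Tgfb1, were at or below the control level on all 6 arrays. Both replicate 3 arrays had the lowest median signals of their groups, 24.3 in iTreg and 21.1 in WT Treg, where the other arrays had 26.8 and 27.4 in iTreg, against 32.3 and 31.7 in WT Treg. In bulk samples such as these, fewer cells of a type and less RNA per cell cannot be told apart.

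Promoter sequences were looked up for the 10 genes in RefSeq (GRCm38.p6), as 250 bases before to 50 after a gene's start, and 5 of them matched. Shown here are Tgfbr1, the activating receptor kinase, Smad3, its substrate, and Tgfbr2. Mean signals of Tgfbr1 were lower in iTreg on all 3 probe sets, with overlapping groups on the brightest. Smad3 had 1 of 3 probe sets higher in iTreg without overlap, and the groups of Tgfbr2 overlapped on every probe set. None of these differences passed the test given below. The windows are chr4:47352972-47353271 on the plus strand for Tgfbr1, chr9:63757945-63758244 on the minus strand for Smad3 and chr9:116175314-116175613 on the minus strand for Tgfbr2. Capitals mark CAGAC, the short box that Smad proteins are known to bind, and GGGCGG, the GC box of Sp1-like factors, each on either strand.
Tgfbr1: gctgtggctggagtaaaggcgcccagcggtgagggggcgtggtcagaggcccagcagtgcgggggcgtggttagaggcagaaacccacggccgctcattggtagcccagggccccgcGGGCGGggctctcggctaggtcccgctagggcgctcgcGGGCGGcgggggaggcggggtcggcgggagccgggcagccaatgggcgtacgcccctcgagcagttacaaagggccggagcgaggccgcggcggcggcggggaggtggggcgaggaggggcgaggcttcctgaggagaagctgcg
Smad3: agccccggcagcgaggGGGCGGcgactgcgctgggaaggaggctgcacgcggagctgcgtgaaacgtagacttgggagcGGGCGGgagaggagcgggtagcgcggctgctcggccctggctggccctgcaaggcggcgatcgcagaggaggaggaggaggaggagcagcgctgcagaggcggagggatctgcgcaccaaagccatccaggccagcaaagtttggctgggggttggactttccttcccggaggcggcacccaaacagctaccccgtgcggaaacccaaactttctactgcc
Tgfbr2: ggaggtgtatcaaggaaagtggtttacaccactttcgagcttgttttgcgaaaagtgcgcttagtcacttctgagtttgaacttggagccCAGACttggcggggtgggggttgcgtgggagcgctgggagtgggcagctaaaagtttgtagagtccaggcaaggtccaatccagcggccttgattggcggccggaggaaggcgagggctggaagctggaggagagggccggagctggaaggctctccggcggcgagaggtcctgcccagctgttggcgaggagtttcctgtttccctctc
The Tgfbr1 and Smad3 windows each held 2 GC boxes and 0 CAGAC boxes, while that of Tgfbr2 held 1 CAGAC box and 0 GC boxes. Over all 32851 promoter windows of this length, 49.6% held CAGAC and 35.7% held GGGCGG, and no matches overlapped in the windows shown. The GC content was 74.7% for Tgfbr1, 67.7% for Smad3 and 59% for Tgfbr2, where the median of all windows was 52.7%. A second start of Tgfbr1, at chr4:47385966-47386265, held 1 CAGAC box and a GC content of 52%. A match of letters is a description and not a binding site.

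None of the 24 probe sets passed the test between the groups. Values were compared as log2(signal + 16), which understates the change of dim probe sets, with limma across all 45037 probe sets, as iTreg minus WT Treg. Limma adjusted p-values of the 24 ran from 0.854 to 0.997. Of all probe sets, 2 passed, 0.00444%. At an unadjusted p under 0.05 stood 7 of the 24, 2 higher and 5 lower in iTreg, where 5.57% of all probe sets did, 2.46% higher and 3.11% lower. Groups did not overlap for 8 of the 24, 3 higher and 5 lower in iTreg, where 10.9% of all probe sets had such groups, 4.9% higher and 5.99% lower. These 8 lie in 5 genes, Tgfbr1, Tgfbr3, Smad2, Smad3 and Skil, and probe sets of 1 gene measure the same RNA, so they are not separate observations. The median difference of the 24 was 0.06, beside -0.003 over all probe sets, and the median size of a difference was 0.38, beside 0.22 over all probe sets and 0.28 over the 16935 probe sets above the controls on every array. With the genes picked when earlier results of these data were known, these shares describe them and no more. The 95% confidence intervals reached from 0.38 to 1.35 log2 units to each side, with a median of 0.78. The 0.38 is that of Tgfbr2 1422019_at, which was below the controls on every array. A difference of the median size can be missed with 3 arrays a group, and after adjustment so can larger ones. In simulated data 1.8% of changes of 1 log2 unit and 48.2% of 2 were recovered.

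**Figure D1:**
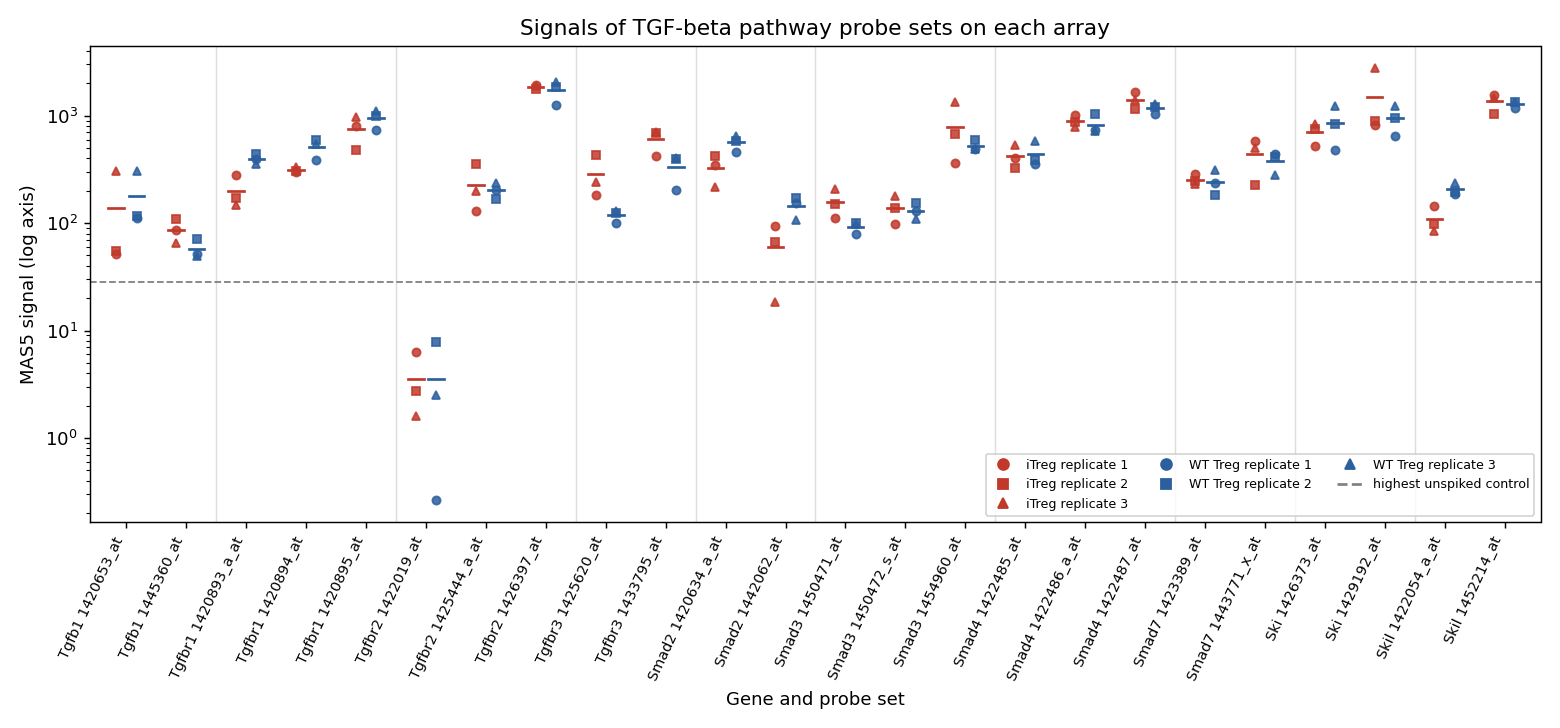
MAS5 signals (log axis) of the 24 probe sets on each array, iTreg in red left of WT Treg in blue, marker shape giving the replicate and bars the group means (n = 3 each). The dashed line is the highest unspiked control, 28.5, and 1 Tgfbr2 probe set lies below it on all 6 arrays.

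The ligand gene Tgfb1 gave opposite differences on its 2 probe sets. Probe set 1420653_at had signals of 52.1, 55.0 and 305 in iTreg replicates 1, 2 and 3, against 112, 116 and 308 in WT Treg. The replicate 3 array stood above the other arrays in both groups, at 5.86 times the lowest array in iTreg and 2.75 times in WT Treg, and the groups overlapped. Its log2 difference was -0.60 (standard error 0.61, limma adjusted p = 0.931), and it was -0.90 without both replicate 3 arrays, -1.34 without that of iTreg and -0.16 without that of WT Treg. Probe set 1445360_at had 85.8, 110 and 65.9 in iTreg, against 52.2, 71.1 and 49.2 in WT Treg. Here only iTreg replicate 3 fell within the WT Treg range, and the difference was 0.48 (standard error 0.40, limma adjusted p = 0.924). The replicate 3 arrays, the highest of their groups on 1420653_at, were the lowest of their groups on 1445360_at.

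Tgfbr1, the receptor kinase that phosphorylates Smad2 and Smad3, had lower mean signals in iTreg on all 3 of its probe sets, which the annotation ties to 1 sequence record. Probe set 1420893_a_at had 282, 172 and 146 in iTreg, against 397, 444 and 354 in WT Treg. Every iTreg array lay below every WT Treg array, and the log2 difference was -0.98 (standard error 0.34, limma adjusted p = 0.854). This was the smallest p of the 24 probe sets, with group means of 200 ± 72.1 in iTreg and 398 ± 44.9 in WT Treg (SD, n = 3 each). Probe set 1420894_at had 297, 307 and 332 in iTreg, against 387, 596 and 546 in WT Treg. The groups again did not overlap, and the iTreg arrays lay within 1.12 times of each other; the difference was -0.66 (standard error 0.30, limma adjusted p = 0.897). Probe set 1420895_at, the brightest, had 811, 478 and 980 in iTreg, against 736, 993 and 1099 in WT Treg. Here the groups overlapped, with iTreg replicates 1 and 3 within the WT Treg range, and the difference was -0.35 (limma adjusted p = 0.927). All 3 probe sets stayed negative under each alternative setting they were run under. On those without overlap, only a change of scaling could have turned the sign. The differences ran from -1.24 to -0.80, -0.84 to -0.54 and -0.57 to -0.06 without single arrays, the -0.06 of 1420895_at being that without iTreg replicate 2.

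Tgfbr2, the kinase that binds the ligand first, showed no separation of the groups on any probe set. The brightest, 1426397_at, had 1952, 1758 and 1893 in iTreg, against 1266, 1839 and 2067 in WT Treg. The iTreg arrays lay within 1.11 times of each other and inside the WT Treg range, and the log2 difference was 0.14, with a 95% interval from -0.46 to 0.75 (limma adjusted p = 0.967). Probe set 1425444_a_at had 130, 353 and 200 in iTreg, against 203, 169 and 236 in WT Treg. The iTreg arrays were the more spread, 2.73 times from lowest to highest, and the difference was 0.06 with an interval from -0.80 to 0.92 (limma adjusted p = 0.992). The remaining probe set, 1422019_at, was at 1.62 to 6.27 in iTreg and 0.263 to 7.83 in WT Treg, below the highest unspiked control on all 6 arrays, and gives no usable comparison.

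Tgfbr3, or betaglycan, a co-receptor without a kinase domain that presents ligand to Tgfbr2, had all iTreg arrays above all WT Treg arrays on both of its probe sets. Probe set 1425620_at had 183, 427 and 241 in iTreg, against 99.9, 125 and 129 in WT Treg. Its log2 difference was 1.09 (standard error 0.38, limma adjusted p = 0.877), with means of 284 ± 127 in iTreg and 118 ± 15.8 in WT Treg (SD, n = 3 each). It is the largest positive difference of the 24 and lies at the 97.9th percentile of absolute differences over all probe sets. Probe set 1433795_at had 425, 685 and 711 in iTreg, against 206, 399 and 405 in WT Treg. The gap between the groups was narrow, iTreg replicate 1 at 425 and WT Treg replicate 3 at 405, and the difference was 0.85 (standard error 0.36, limma adjusted p = 0.892). WT Treg replicate 1 was the lowest array on both probe sets, and without it the difference of 1433795_at was 0.54. Without both arrays of doubtful label the differences were 1.24 and 0.77, and without both replicate 3 arrays 1.22 and 0.87.

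Smad2, a transcription factor that Tgfbr1 activates, had all iTreg arrays below all WT Treg arrays on both probe sets. Probe set 1420634_a_at had 351, 419 and 216 in iTreg, against 461, 582 and 648 in WT Treg. The log2 difference was -0.79 (standard error 0.33, limma adjusted p = 0.892), from means of 329 ± 103 in iTreg and 564 ± 95.2 in WT Treg (SD, n = 3 each). Probe set 1442062_at had 94.9, 66.4 and 18.5 in iTreg, against 155, 171 and 106 in WT Treg. Its value in iTreg replicate 3 was below the highest unspiked control, and its difference of -1.21 with a standard error of 0.49 was the largest in size of the 24 (limma adjusted p = 0.892). iTreg replicate 3 was the lowest array on both. Without it the differences were -0.52 and -0.72, and without both replicate 3 arrays -0.42 and -0.90.

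Smad3, the other transcription factor that Tgfbr1 activates, had positive differences on all 3 probe sets, with separate groups on 1 of them. Probe set 1450471_at had 112, 150 and 210 in iTreg, against 79.7, 99.5 and 97.6 in WT Treg. The log2 difference was 0.64 with a standard error of 0.37 and an interval from -0.17 to 1.46 (limma adjusted p = 0.905). Probe set 1450472_s_at, tied to the same sequence record, had 97.9, 137 and 177 in iTreg, against 130, 154 and 108 in WT Treg. These groups overlapped widely and differed by 0.04 (limma adjusted p = 0.995). Probe set 1454960_at, the brightest, had 364, 669 and 1346 in iTreg, against 488, 595 and 485 in WT Treg. iTreg spanned 3.70 times from lowest to highest and WT Treg 1.23 times, and the difference was 0.40 (standard error 0.42, limma adjusted p = 0.931). iTreg replicate 3 was the highest array on all 3 Smad3 probe sets, where it was the lowest on both of Smad2. Without both replicate 3 arrays the Smad3 differences were 0.47, -0.25 and -0.12, so those of the last 2 turned sign.

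**Figure D2:**
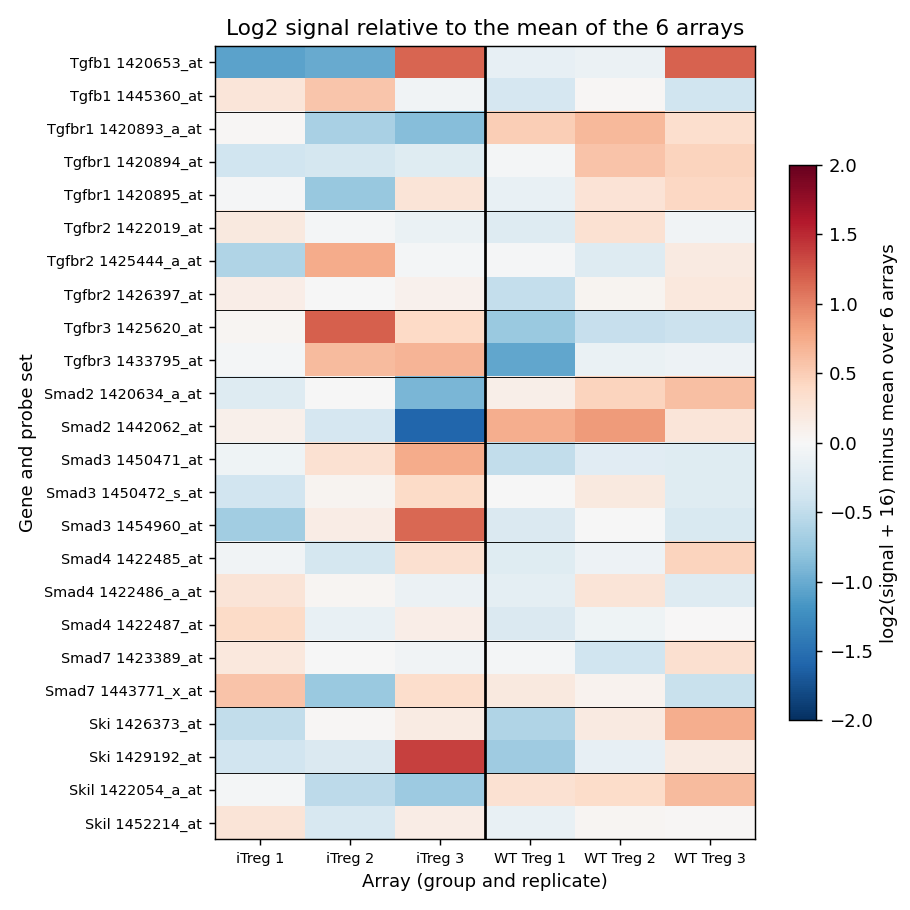
Log2(signal + 16) of each probe set (down the page) minus its mean over the 6 arrays, with the iTreg arrays left of the WT Treg arrays. iTreg replicate 3 is lowest on both Smad2 probe sets and highest on all 3 of Smad3, and both replicate 3 arrays are high on Tgfb1 1420653_at.

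Smad4, the shared partner of activated Smads, had overlapping groups on all 3 probe sets. Probe set 1422487_at had 1661, 1145 and 1403 in iTreg, against 1039, 1199 and 1285 in WT Treg, which gave a log2 difference of 0.24 with an interval from -0.35 to 0.84 (limma adjusted p = 0.932). Probe set 1422486_a_at had 1023, 882 and 787 in iTreg, against 741, 1027 and 714 in WT Treg, a difference of 0.13 (limma adjusted p = 0.973). Probe set 1422485_at had 401, 326 and 530 in iTreg, against 355, 391 and 577 in WT Treg, a difference of -0.07 (limma adjusted p = 0.989). On 1422487_at iTreg replicates 1 and 3 lay above all WT Treg arrays, and on 1422486_a_at WT Treg replicates 1 and 3 lay below all iTreg arrays. The difference of 1422485_at was 0.02 with arrays scaled to a common median.

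Smad7, the inhibitory Smad that is itself a known target of the pathway, likewise had overlapping groups. Probe set 1423389_at had 286, 245 and 233 in iTreg, against 238, 182 and 310 in WT Treg, which gave a log2 difference of 0.09 with an interval from -0.63 to 0.80 (limma adjusted p = 0.985). Probe set 1443771_x_at, whose name marks probes that can match other transcripts, had 582, 226 and 499 in iTreg, against 445, 409 and 279 in WT Treg. iTreg held both its highest and its lowest array, and the difference was 0.12 with an interval from -0.73 to 0.97 (limma adjusted p = 0.982).

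Ski, a nuclear repressor that binds Smads, gave opposite signs on its 2 probe sets. Probe set 1429192_at had 820, 884 and 2808 in iTreg, against 652, 959 and 1223 in WT Treg. iTreg replicate 3 stood 3.43 times above the lowest iTreg array; the difference was 0.47 (standard error 0.45, limma adjusted p = 0.931), and -0.10 without that array. Probe set 1426373_at had 519, 753 and 832 in iTreg, against 482, 842 and 1228 in WT Treg, a difference of -0.20 (limma adjusted p = 0.962).

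Skil, or SnoN, a relative of Ski that TGF-beta is known both to degrade as protein and to induce as RNA, differed between its probe sets. Probe set 1422054_a_at had 145, 98.4 and 84.0 in iTreg, against 187, 196 and 238 in WT Treg. Every iTreg array lay below every WT Treg array, and the log2 difference was -0.86 (standard error 0.35, limma adjusted p = 0.892), from means of 109 ± 31.7 in iTreg and 207 ± 27.6 in WT Treg (SD, n = 3 each). Probe set 1452214_at, the brighter, had 1563, 1048 and 1461 in iTreg, against 1179, 1355 and 1332 in WT Treg. Its iTreg arrays lay on both sides of WT Treg, and the difference was 0.06 with an interval from -0.54 to 0.65 (limma adjusted p = 0.989).

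**Figure D3:**
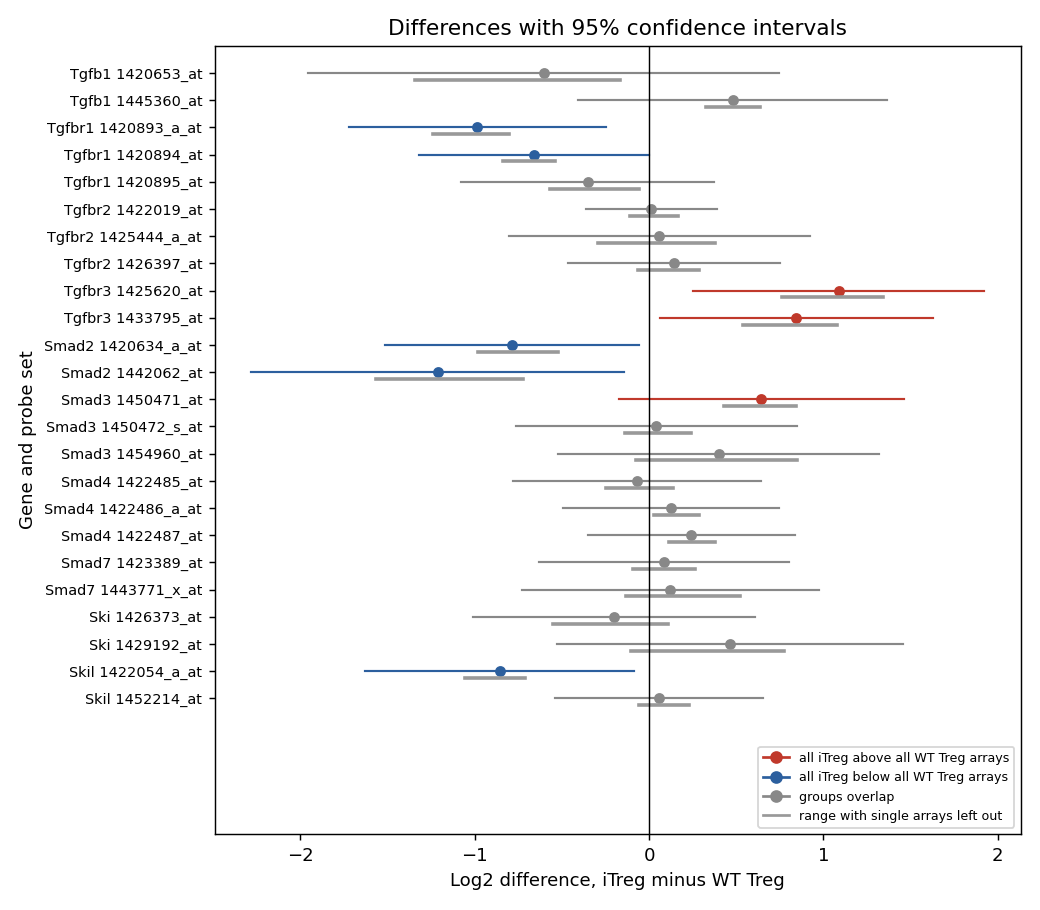
Log2 differences, iTreg minus WT Treg (x axis), of the 24 probe sets with 95% confidence intervals from limma, and below each the range when single arrays are left out. Intervals of 7 probe sets, in Tgfbr1, Tgfbr3, Smad2 and Skil, lie off 0 before adjustment, and the other 17 include 0.

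Across the 10 genes, the probe sets of 6 agreed in sign, those of Tgfbr1, Tgfbr2, Tgfbr3, Smad2, Smad3 and Smad7, and those of Tgfb1, Smad4, Ski and Skil did not. Those of Tgfbr1, Tgfbr3 and Smad2 kept that sign under each alternative setting they were run under, while all those of Tgfbr2 and Smad7 and 2 of Smad3 turned sign under at least 1, and Tgfbr2 1422019_at was at control level. Where groups do not overlap, only the alternatives that change the scaling could have turned a sign. Within the receptors the signs thus ran negative for Tgfbr1 and positive for Tgfbr3, and within the Smads that Tgfbr1 activates negative for Smad2 and positive for Smad3. Of the 22 probe sets above the unspiked controls on every array, WT Treg replicate 3 was the highest of the 6 arrays on 8 and WT Treg replicate 1 the lowest on 7, including both of Tgfbr3. Over all probe sets above the controls, these shares were 21.7% for WT Treg replicate 3 as the highest and 11.0% for WT Treg replicate 1 as the lowest, where they were 8 and 7 of 22 here. iTreg replicate 3 was the lowest or highest on 8, 36.4%, and on 49.4% of all probe sets above the controls. For Gapdh, the log2 of 3′ over 5′ control signals, a measure of RNA quality, was 3.06, 2.48 and 3.38 in iTreg, against 2.28, 2.53 and 2.34 in WT Treg, higher on average in iTreg; its part in these differences was not tested. That of beta-actin was 0.38, 0.25 and -0.0004 in iTreg, against 0.14, 0.27 and 0.32 in WT Treg. Without both arrays of doubtful label 4 of the 24 stood at an unadjusted p under 0.05, where 4.45% of all probe sets did. Without both replicate 3 arrays 3 did, where 5.08% of all did.

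Tgfbr1 1420893_a_at, which had the smallest p, was set against 10915 genes read on their brightest probe set. The 5 genes most like it over the 6 arrays were Fam43a, Fam124b, Msrb2, Tlcd5 and Trmt6, with a Pearson r of log2 values from 0.98 to 1.00. All arrays share their groups and scaling, and with 6 points and so many genes such values describe a likeness only. Trmt6, a subunit of a tRNA methyltransferase, had 202, 146 and 98.3 in iTreg, against 280, 321 and 292 in WT Treg. In Fam43a the iTreg signals, 26.0, 10.3 and 6.52, were below the highest unspiked control.

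Other genes of the pathway were read on the brightest probe set of each, 89 of 94 listed genes in 8 lists, and 51 of them were above the unspiked controls on every array. None passed limma's test over all probe sets. At an unadjusted p under 0.05, 3 were higher and 6 lower in iTreg, where 6.02% of all genes read this way did, 2.67% higher and 3.35% lower. Groups did not overlap for 9 of the 89, where 11.7% of all genes had such groups. The median difference of the 89 was -0.0002, beside -0.005 over all genes.

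Among genes of ligands and their release, the integrin chain gene Itgb8, whose product with the alpha v chain is known to free TGF-beta from its latent form, had 19.2, 23.95 and 4.47 in iTreg, against 47.5, 57.5 and 81.0 in WT Treg. Every iTreg array was below the highest unspiked control and every WT Treg array above it. The log2 difference was -1.33 (limma adjusted p = 0.854), or -0.87 without both replicate 3 arrays. It was the 1 of 15 measured members of this list at an unadjusted p under 0.05, where 6.02% of all genes were. The list's median was 0.03. Ltbp4, a latent TGF-beta binding protein, was below the highest control on all 6 arrays.

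In the list of other receptors of the family, Acvr1c, a receptor kinase that signals through Smad2 and Smad3 for other ligands, was the 1 of 12 at that level. Its brightest probe set had 10.8, 19.2 and 7.42 in iTreg, against 38.6, 65.3 and 33.9 in WT Treg, which gave a log2 difference of -1.11 (limma adjusted p = 0.887). All iTreg values of this gene lay below the highest control. The other 2 probe sets gave -1.25, with WT Treg replicate 3 below that level too, and -0.74, with all 6 arrays below it, which gives no usable comparison. Acvr1b, a related kinase for activins, had 101, 170 and 267 in iTreg on its brightest probe set, against 90.0, 115 and 111 in WT Treg. That difference was 0.60 with overlapping groups (limma adjusted p = 0.909), or 0.29 without iTreg replicate 3. Its other probe set had 63.5, 55.7 and 66.3 in iTreg, against 47.7, 43.8 and 48.5 in WT Treg. Those groups did not overlap and differed by 0.31 (limma adjusted p = 0.940).

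Other Smads and adaptors had 0 of 10 members at an unadjusted p under 0.05, and the 2 with the smallest p, Foxh1 (0.52) and Smad6 (0.32), were below the highest unspiked control on all 6 arrays of the probe sets read. Of the other 2 probe sets of Foxh1, 1 gave 0.26 and the other -0.41. Ubiquitin ligases and deubiquitinases had 0 of 12. The smallest p there was that of Wwp2, a ligase, with 159, 87.6 and 154 in iTreg, against 225, 217 and 192 in WT Treg. That log2 difference was -0.64 without overlap (limma adjusted p = 0.905), or -0.39 without iTreg replicate 2, and the other 5 probe sets ran from -0.59 to -0.04. Stub1, a ligase for misfolded proteins and Smads, had 655, 856 and 191 in iTreg, against 919, 813 and 568 in WT Treg. These groups overlapped, and the difference of -0.64 was -0.0054 without iTreg replicate 3. The Smad-independent kinases had 0 of 9 on their brightest probe sets, led by Tab2, an adaptor of the TAK1 kinase, at 0.47. Its second probe set had 667, 614 and 878 in iTreg, against 471, 388 and 479 in WT Treg, a difference of 0.66 (limma adjusted p = 0.895). Pik3r1, a phosphoinositide kinase subunit, differed by -0.40, or by -0.23 without WT Treg replicate 3.

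Brakes and corepressors, listed as nuclear though Strap acts at the receptor, held 9 negative and 1 positive differences among 10 measured genes. Over all genes, 9217 of 18193 differences were negative. The median of the 10 was -0.07, with each gene read on its brightest probe set. Other probe sets of these genes ran both ways, such as 0.54 and 0.81 for Pmepa1 and -0.70 and -0.12 for Sin3a. On the brightest probe sets the groups of 2 genes did not overlap, and both had an unadjusted p under 0.05. Of all genes read this way, 11.7% had groups without overlap and 6.02% such a p. Tgif1, a homeodomain repressor of Smad targets, had 205, 124 and 171 in iTreg, against 405, 226 and 296 in WT Treg, which gave a log2 difference of -0.82 (limma adjusted p = 0.895). Strap, known to help Smad7 block the receptor, had 304, 291 and 96.8 in iTreg, against 376, 360 and 579 in WT Treg. Its difference was -0.996 (limma adjusted p = 0.895), and it was -0.50 without iTreg replicate 3 and -0.29 without both replicate 3 arrays. Its other 2 probe sets gave 0.07 and 0.68.

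Genes listed here as induced by TGF-beta, in T cells or more widely, had a median difference of 0.04 over 11 members, 7 positive and 4 negative. Only 4 of the 11 were above the unspiked controls on every array. The other members were dim on some or all arrays, where the scale understates a change, which limits what this median shows. Itgae, the integrin chain CD103 and a classical target in T cells, had 2847, 2623 and 5638 in iTreg, against 3574, 2072 and 4263 in WT Treg, chosen after its values were seen. These groups overlapped, with a log2 difference of 0.14 (limma adjusted p = 0.978), and the other probe set of Itgae gave -0.27. The smallest p values in the list were those of Id1, an inhibitor of helix-loop-helix factors, and the chemokine receptor gene Ccr8. Id1 differed by -0.77 (limma adjusted p = 0.806) with all 6 arrays below the highest unspiked control. Ccr8 differed by -0.76 (limma adjusted p = 0.905), with only WT Treg replicate 3, at 32.1, above that level.

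Genes known to be repressed by TGF-beta in T cells had the largest list median, 0.74 over 10 members, with 6 positive and 4 negative. Of these 10, 6 were above the unspiked controls on every array. At an unadjusted p under 0.05 stood 3 higher and 1 lower in iTreg. Of all genes read on their brightest probe set, 2.67% were higher and 3.35% lower at that level. The inhibitory receptor gene Klrg1 had 995, 1036 and 1195 in iTreg, against 458, 258 and 203 in WT Treg, which gave a log2 difference of 1.83 (limma adjusted p = 0.382). Eomes, a T-box transcription factor of cytotoxic cells, had 248, 179 and 364 in iTreg, against 99.8, 129 and 51.0 in WT Treg. The log2 difference was 1.37 on this probe set (limma adjusted p = 0.823), or 0.81 without both replicate 3 arrays, and 1.33 on its other one. Gzmb, the granzyme B gene, had 215, 76.9 and 442 in iTreg, against 154, 32.1 and 36.3 in WT Treg, with overlapping groups and a difference of 1.51. Members of the same list that lay the other way were Myc at -1.08, Tbx21 at -0.52, Prf1 at -0.33 and Cxcr3 at -0.05, named, like Gzmb, after their values were seen. The other probe set of Prf1 gave 0.44. Tbx21 was above the highest unspiked control only in WT Treg replicate 2, at 51.2. CD8 T cells are also known for Klrg1, Eomes and Gzmb, and their marker Cd8b1 had 69.6, 132 and 70.1 in iTreg, against 63.3, 33.7 and 34.0 in WT Treg. Those groups did not overlap and differed by 0.82 on the log2 scale (limma adjusted p = 0.905). Their other marker, Cd8a, had 30.9, 93.0 and 33.5 in iTreg, against 43.8, 39.8 and 39.2 in WT Treg, with overlap. The part of such cells in these differences was not tested. NK cell markers, whose cells express some of these genes, had summed signals of 15.0 to 77.1 in iTreg and 51.5 to 79.0 in WT Treg, with Ncr1 and Klra8 at or below the controls on every array.

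**Figure D4:**
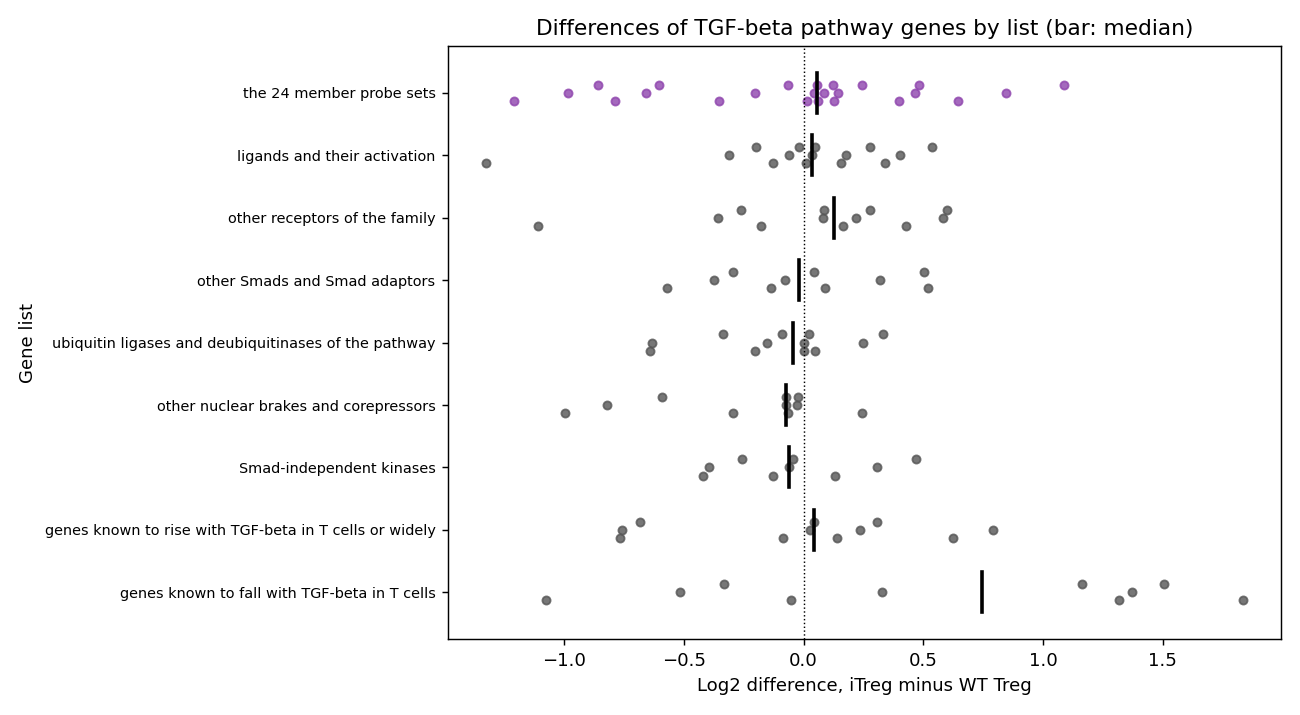
Log2 differences, iTreg minus WT Treg (x axis), of the 24 probe sets (top row, purple) and of the genes of 8 pathway lists (grey, brightest probe set of each gene), with the median as a black bar. The medians of 7 lists lie between -0.07 and 0.12, and that of genes known to fall with TGF-beta is 0.74.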

How the data were processed

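Total RNA (Trizol) carried a biotin label, per the labels' protocols, and was measured on 6 one-colour Affymetrix mouse arrays. The authors deposited 1 linear MAS5 intensity for each probe set, per the submitters' processing notes; no MAS5 version is given in the sources used here. Each array had a 2% trimmed mean of 150.0. Detection calls were not used here. Groups came from the sample titles, and the labels do not say whether replicates are separate mice, so p-values measure the spread between arrays, which may be technical. The number of arrays limits the precision.

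Of 45101 probe sets, 64 controls were left out. The annotation gave 34945 of the rest 1 symbol, 932 several and 9160 none. Signals were taken as log2(signal + 16) and tested by limma 3.58.1 under R 4.3.3 (lmFit, then eBayes with an intensity trend, two-sided, Benjamini-Hochberg over 45037 probe sets at 0.05, no filter). The background level is the highest signal of 27 bacterial controls that had no spiked target. The members and gene lists were chosen with earlier results of these data known. Named beside the members were the 2 genes of each list with the smallest p, and the 5 genes most like the member with the smallest p. On simulated data with 45037 probe sets and 200 changed in this comparison, limma recovered 1.8% of changes of 1 log2 unit, 48.2% of 2, 98.2% of 3 and 100% of 4, and 3.42% of calls were false. The simulation drew normal noise with a variance set by the mean signal alone. It changed only probe sets above the 40th percentile of mean signal, so these shares can be too high for the data. Alternatives were other pseudocounts, scalings, filters and variance models, array weights, a replicate block and arrays left out.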

Additional observations from a re-analysis of the deposited data

How the results depend on the processing

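The 18 alternatives called 0 of the 24 probe sets, with lowest limma adjusted p-values from 0.623 to 0.978, and 0 of the pathway genes. The count of calls over the whole table, 2, was 4 with a pseudocount of 1, 0 with 64, 7 with the filter on low values, 1 without a trend, 6 with robust variance, 0 without both arrays of doubtful label, 0 without both replicate 3 arrays, and 0 to 4 without single arrays. Same-numbered arrays correlated in their deviations at 0.19, 0.04 and 0.12, and differently numbered ones at -0.17 to 0.02. Every array thus correlated best with its own number. The main fit did not take the numbers as pairs, so an effect shared by a number, if present, was left in its spread. With the replicate block 0 probe sets were called over the table and 0 of the 24, and 6 of the 24 stood at an unadjusted p under 0.05.

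Of the 24 differences, 12 kept their sign under every alternative they were run under, among them the 8 without overlap, and 12 did not. For those 8, leaving arrays out, weighting them or changing the pseudocount could not turn the sign. The filter, variance and block settings leave a difference unchanged, so only the scalings could have turned it. With 1 probe set per gene only the brightest of each gene was run, and the filter left out Tgfbr2 1422019_at. Without both arrays of doubtful label Tgfbr2 1422019_at was -0.21, Tgfbr2 1426397_at -0.095, Smad4 1422486_a_at -0.039, Smad7 1443771_x_at -0.0054 and Skil 1452214_at -0.12. Without both replicate 3 arrays Smad3 1450472_s_at was -0.25, Smad3 1454960_at -0.12 and Smad7 1443771_x_at -0.22. Smad3 1450472_s_at was -0.090 with array weights and Smad4 1422485_at 0.019 with median scaling. Without single arrays the ranges were -0.11 to 0.17 for Tgfbr2 1422019_at, -0.29 to 0.38 for 1425444_a_at and -0.062 to 0.29 for 1426397_at. They were -0.14 to 0.24 for Smad3 1450472_s_at, -0.073 to 0.85 for Smad3 1454960_at, -0.24 to 0.14 for Smad4 1422485_at, -0.093 to 0.26 for Smad7 1423389_at and -0.13 to 0.52 for Smad7 1443771_x_at. For Ski they were -0.55 to 0.11 on 1426373_at and -0.10 to 0.78 on 1429192_at, and for Skil 1452214_at -0.055 to 0.23. The cause was not tested. Signals near the controls limit what can be said of Tgfbr2 1422019_at, Itgb8, Acvr1c and Id1.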
